A study of Danio rerio with 12 samples.

Results

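The introns described here are the annotated retained-intron events of zebrafish embryos whose intron is longer than 100 bp. They were chosen by length, as the distance between the upstream and the downstream exon, and by depth, with a mean of at least 10 junction reads per library. In all, 342 introns in 313 genes met both conditions in at least 1 of the 3 deposited tables, of 784 retained-intron events in the tables together. By table, 322 of 740 events qualified in the snapc3 comparison, 326 of 741 in the lsm8 comparison and 319 of 744 in the tnpo3 comparison, and 307 introns qualified in all 3. Before the read minimum the 3 tables held 350, 353 and 350 introns above 100 bp, and every intron that passed the minimum could be tested. Their median length was 187 bp and the longest had 9341 bp.

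RNA came from whole embryos in 12 libraries, 3 each of wild-type controls and of snapc3-/-, lsm8-/- and tnpo3-/- embryos. The tnpo3 libraries were registered later than all others, and a difference between batches was not tested. Per the labels, the snapc3 mutants were all of mixed background A, the lsm8 mutants of B and the tnpo3 mutants of C, while the controls had 1 library of each background. Mutation and background therefore cannot be told apart in any comparison, including those between mutants. The mutants came from a forward genetic screen for regulators of T lymphocyte development. The sources used here give no age, no number of embryos per library and no lesion for any gene, so p-values measure only the spread between these libraries. In controls that spread, and the SD, takes in any difference between backgrounds. Within a mutant group it does not.

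An intron is removed from a pre-mRNA by the spliceosome, which recognises it through small nuclear RNAs (snRNAs) packed with proteins. When removal fails or is delayed, the intron stays in the transcript, which is then often held in the nucleus or degraded. The snapc3 protein belongs to the complex that starts snRNA transcription. The lsm8 protein is part of the ring bound to U6 snRNA, and tnpo3 brings SR splicing proteins from the cytoplasm to the nucleus. In human and other vertebrate cells, genes for splicing factors themselves often carry introns that are retained as part of their regulation. The libraries were made from total RNA after removal of ribosomal RNA, so partly processed pre-mRNA was measured together with finished mRNA.

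The retention level is the share of transcripts that keep the intron, from reads over exon-intron boundaries (inclusion) and reads over the exon-exon junction (skipping), each divided by the number of positions that can give such a read. Values are percentages, differences are in percentage points, and errors are SD over 3 libraries. For the 301 introns with a level in every library, the summed junction reads were 252184 to 292772 per control library, 238231 to 283161 in snapc3 mutants, 243456 to 295267 in tnpo3 mutants and only 166841 to 207215 in lsm8 mutants. The median of these introns had 149 reads per library, and the means ran from 12.3 to 22258. In the authors' deposited expression tables, snapc3 itself was lower in snapc3 mutants (log2 fold change -1.39, SE 0.19, adjusted p = 0.0298) and tnpo3 was lower in tnpo3 mutants (-1.51, SE 0.06, adjusted p = 0.0104). The authors' deposited table for lsm8 mutants has lsm8 itself higher (2.87, SE 0.10, adjusted p = 0.000602), and the table for snapc3 mutants has lsm8 higher as well (2.19, SE 0.07, adjusted p = 0.00213). Of the cell type markers, 13 of 16 for muscle, 11 of 12 for neurons and glia and 16 of 18 for exocrine pancreas had control reads in the skipped-exon tables, which hold only genes with such an event. So did 8 of 10 for intestine and 7 of 8 for liver. The counts were lower for myeloid cells (5 of 9), T lymphocytes (5 of 14), photoreceptors (4 of 14), lens (1 of 6) and erythroid cells (0 of 7). With the lesions unknown, RNA levels of snapc3, lsm8 and tnpo3 do not check the labels.

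In control embryos the introns above 100 bp split into mostly spliced and mostly retained ones. Of the 301 introns, 129 (42.9%) were retained at below 10%, 108 (35.9%) at 10 to 90% and 64 (21.3%) at above 90%, with a median of 15.2%. The 339 introns of 100 bp or less with the same depth had a median of 8.86%. Among long introns the median was 10.3% for 160 introns of up to 200 bp, 20.2% for 94 above 200 and up to 500 bp, 15.2% for 18 above 500 and up to 1000 bp and 56.8% for 29 above 1000 bp. The introns above 1000 bp thus had a higher median than the shorter bins, with 34.5% of them above 90% retention. A skipped exon lay inside 9 of the 53 introns over 500 bp and 12 of the 289 introns of 500 bp or less. Its part in the levels by length was not tested.

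**Figure D1:**
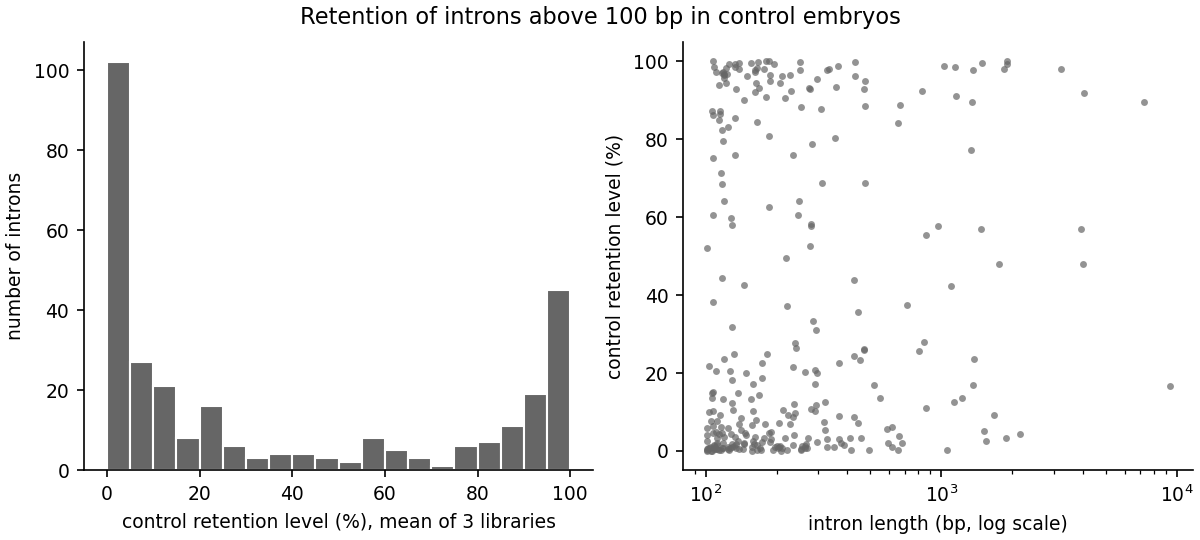
Control retention of the 301 introns with a level in all 12 libraries, as a histogram in steps of 5 percentage points (left) and against intron length on a log axis (right); each point is the mean of 3 control libraries. The values pile up near 0 and near 100%, and introns above 1000 bp are spread over the whole range.

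The lowest retention among introns with at least 50 reads was found in abundant housekeeping and blood transcripts. The introns of rpl7a (106 bp) and rps27a (105 bp), which encode ribosomal proteins, of the embryonic globin hbbe1.1, of the actin-binding profilin pfn1 (157 bp) and of the ribosomal protein gene rpl23a (208 bp) were all at 0.1% or less. The most deeply covered introns, in the ribosomal protein genes rps8a, rps3a and rps28, were at 0.2% or less although the rps28 intron is 1061 bp long. At the other end, c6ast4, plk3, znf532, znf513 and ccdc126 were at 100% in all 3 control libraries, that is, no control read joined the exons on both sides. They were not alone at that level, as the 243-bp intron of acsl5 also had a control mean of 100%. The plk3 and c6ast4 introns enclose exons of 117 and 10 bp, which were included at 100% in all 3 control libraries. Their levels therefore cannot be read as retention of the whole intron. Lengths were a multiple of 3 for 141 of the 342 introns (41.2%). In the snapc3 table these introns had a control mean of 48.7% ± 1.21 (SD, n = 3), against 31.5% ± 0.58 for the others.

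Not every event was a simple intron. An exon listed in the skipped-exon tables lay inside 21 of the 342 introns and 30 overlapped another retained-intron event. That left 295 introns with neither. Among the introns named here, those of c6ast4, plk3, C6H1orf159, srsf5a, ccnl1a, rbm5, cd74b, mpx and zc3h11a enclose an exon. So do the 367-bp intron of prpf39 and the 1353-bp intron of rbm39a. trnau1apb, which encodes a protein bound to the selenocysteine tRNA, had the most events, 5, of which 4 overlap. Reads at a boundary that events share may count for each of them. A transcript that includes an enclosed exon lacks the exon-exon junction counted as skipping. The level of such an intron therefore also depends on inclusion of that exon.

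Introns of the same gene could differ in level. In srsf1b, an SR protein gene that promotes exon recognition, the 120-bp intron was at 96.4% ± 0.6 and the 654-bp intron at 84.1% ± 3.1 in controls. In rbm39a, a splicing factor gene, the 1353-bp intron was at 89.5% ± 3.8 and the 471-bp intron at 26.0% ± 1.7. The 1353-bp intron encloses a 150-bp exon, included at 55.8% ± 14.8 in controls between the same flanking exons. Its level is therefore not that of the intron alone. In st3gal5, which encodes a sialyltransferase, the 162-bp intron was at 97.1% ± 1.0 and the neighbouring 1887-bp intron at 3.3% ± 0.5. Each of these within-gene gaps was larger than the SD between control libraries.

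In lsm8 mutants, introns above 100 bp were on average slightly more retained than in controls, with single introns moving strongly both ways. The mean over 301 introns was 36.4, 37.1 and 38.0% in the control libraries and 38.9, 38.5 and 38.5% in the lsm8 libraries. All 3 lsm8 libraries lay above all controls, by 1.49 points in the means. In snapc3 mutants the means were 36.3, 36.9 and 36.5%, and in tnpo3 mutants 36.5, 35.3 and 36.6%; both groups overlapped the controls. No p-value is given for these averages over chosen introns.

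**Figure D2:**
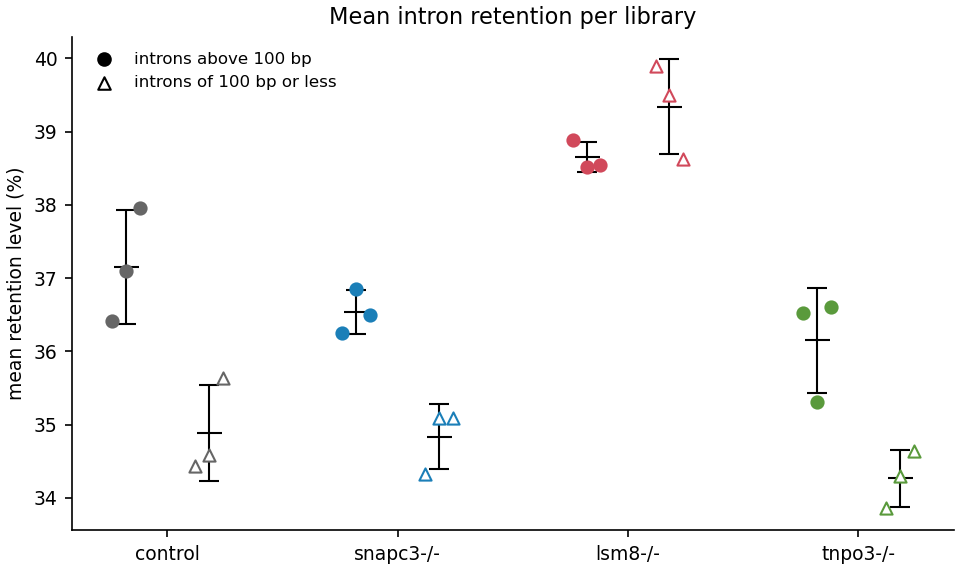
Mean retention level (%) per library, for the 301 introns above 100 bp (filled circles) and 336 introns of 100 bp or less (open triangles) with a level in all 12 libraries; horizontal marks and bars are the mean and SD of 3 libraries, and the axis does not start at 0. In lsm8 mutants the short introns reach the level of the long ones, which lie above the short ones in every library of the other groups.

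In value, the difference in lsm8 mutants was smaller for long introns than for short ones. The 336 introns of 100 bp or less went from 34.9% ± 0.65 to 39.3% ± 0.65, a difference of 4.45 points. Within a library, the mean of long minus short introns was 1.98, 2.50 and 2.32 points in controls, 1.93, 1.77 and 1.40 in snapc3 mutants, and 2.66, 1.02 and 1.96 in tnpo3 mutants. In lsm8 mutants it was -1.01, -0.98 and -0.08, so the sign was turned in all 3 libraries and did not overlap with any other group. The lower read number of the lsm8 libraries moves with this result, and its part in it was not tested.

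Of the 326 introns in the lsm8 table, 215 (66.0%) had a higher mean in the mutants, against 71.9% of all 677 tested introns and 77.5% of the short ones. The median difference was 0.76 points for the long introns and 1.25 for all tested. In 62 introns all 3 mutant libraries lay above all controls and in 19 all lay below, where all tested introns gave 25.7% and 3.84%. The 62 introns are 19.0% of the 326 and the 19 are 5.83%. limma on the log2 ratio of inclusion to skipping called 5 introns, 3 higher and 2 lower, at an adjusted p below 0.05 and a difference of at least 10 points. That is 1.53% of the 326, beside 1.62% of all tested introns (1.33% higher and 0.295% lower). At an unadjusted p below 0.05 there were 52 (16.0%), beside 22.9% of all tested. With the authors' deposited FDR and the same 10 points, 17 of the 326 were higher (5.21%) and 10 lower (3.07%), beside 8.71% and 1.62% of all tested.

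These calls depend on having all 6 libraries. Leaving out 1 library at a time left 0 or 1 of the 326 called, and none passed in a quasi-binomial model (0 of 326). In that model 48 of the 326 had an unadjusted p below 0.05, and the share over all tested introns was not computed. Each of the 5 introns held its call in 2 to 4 of 11 alternatives. The library whose absence left 1 call was the lsm8 library in position 3 of the deposited order.

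uspl1, which encodes a SUMO protease of Cajal bodies where snRNPs mature, had the called intron with the most reads (284 bp, chr10:37685364-37685647, Zv9). It was retained at 76.4, 76.5 and 83.8% in controls, 60.9, 65.1 and 68.1% in snapc3 mutants, 97.3, 96.9 and 96.6% in lsm8 mutants and 75, 73.6 and 67.4% in tnpo3 mutants. All lsm8 libraries lay above and all snapc3 and tnpo3 libraries below the controls. In lsm8 mutants the intron rose by 18.1 points (log2 ratio 3.08, SE 0.41, limma adjusted p = 0.038). The differences of -14.2 points in snapc3 mutants and -6.89 in tnpo3 mutants did not pass (adjusted p = 0.52 and 0.69). The gene's RNA was higher in the authors' deposited tables for lsm8 mutants (log2 fold change 3.24, SE 0.12) and snapc3 mutants (1.41, SE 0.15), and the intron had 127 to 150 junction reads per control library and 1081 to 1571 per lsm8 library. The intron was thus nearly all retained where the gene's reads were most abundant.

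swi5, known from yeast and mammals as a partner in homologous recombination, had a 368-bp intron (chr10:10702074-10702441) at 3.03, 3.70 and 2.22% in controls and 14.3, 20 and 18.0% in lsm8 mutants. The groups did not overlap, on 23 to 56 reads per library (3 of the 6 libraries had fewer than 30). It rose by 14.5 points (adjusted p = 0.038). The snapc3 libraries, at 0.81, 6.80 and 4.67%, and the tnpo3 libraries, at 0, 5.08 and 2.04%, straddled the controls.

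The 453-bp intron of si:ch211-245h7.2 (chr19:15459607-15460059) was at 18.6, 25.2 and 26.1% in controls and 55.9, 50.9 and 57.2% in lsm8 mutants. It rose by 31.4 points (adjusted p = 0.0459). In snapc3 mutants it was at 40.5, 37.5 and 50.3%, also above all controls, with a difference of 19.5 points that did not pass (adjusted p = 0.47). The tnpo3 libraries overlapped the controls at 14.2, 16.9 and 28.7%.

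Both introns called lower had little retention left in lsm8 mutants, with means of 0.9 and 5.9%. The 242-bp intron of si:ch73-249k16.1 (chr20:23069513-23069754) was at 26.1, 31.9 and 21.0% in controls and 0, 0 and 2.63% in lsm8 mutants, and it fell by 25.4 points (adjusted p = 0.0459). The 2 libraries at 0 had 52 and 59 reads, so the fitted ratio depends on the pseudocount. In snapc3 mutants the 3 libraries scattered from 0 to 34.6%, and 1 of them was at 0 as well.

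The 716-bp intron of C6H1orf159 (chr6:40643277-40643992) was at 25, 38.4 and 49.1% in controls and 8.70, 5.26 and 3.64% in lsm8 mutants. It fell by 31.6 points (adjusted p = 0.0459), on 17 to 51 reads per library. In snapc3 mutants it was at 0, 10 and 17.2% and in tnpo3 mutants at 2.41, 19.5 and 12.5%, so every mutant library lay below every control (adjusted p = 0.49 and 0.42). This intron encloses a 76-bp exon, whose own inclusion was 61.9% ± 9.40 in controls, 39.2% ± 7.79 in snapc3, 33.9% ± 8.44 in lsm8 and 30.2% ± 9.19 in tnpo3 mutants. That exon's difference passed in the skipped-exon table of the tnpo3 mutants (adjusted p = 0.04) and not in those of lsm8 (0.09) or snapc3 mutants (0.29). Skipping of the exon and removal of the intron are read from the same exon-exon junction. Lower inclusion of the exon goes with more reads of that junction, which lowers the computed retention level. Its part in the fall was not tested.

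**Figure D3:**
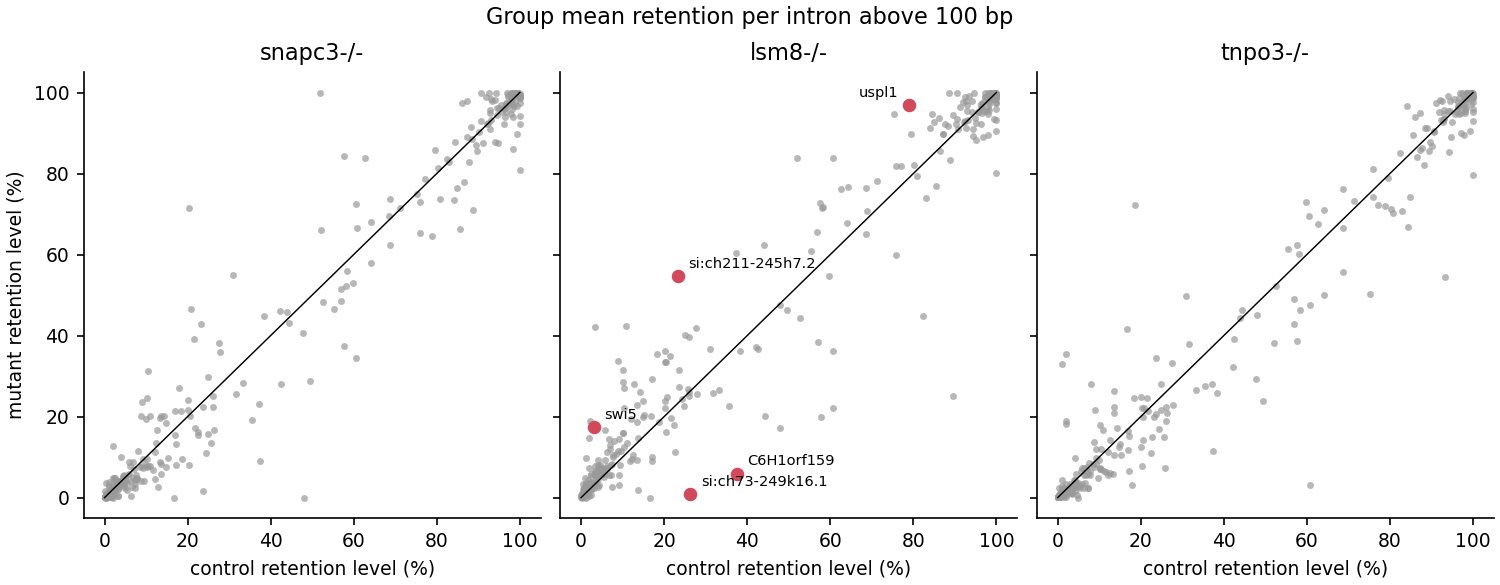
Group mean retention level (%) of each intron above 100 bp in controls (x axis) and mutants (y axis), 1 panel per mutant; coloured, named points passed limma at an adjusted p below 0.05 with a difference of at least 10 points, and the line marks equal levels. The 5 named introns lie in the lsm8 panel, 3 above and 2 below the line, and no intron passed in the other panels.

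Several introns with large differences in lsm8 mutants stayed outside the threshold. zcchc8, a subunit of the complex that feeds nuclear RNA to the exosome, had a 131-bp intron at 9.73, 11 and 10.6% in controls, 23.0, 29.2 and 29.0% in lsm8 mutants and 27.4, 39.6 and 26.7% in snapc3 mutants. Both mutants lay above all controls (adjusted p = 0.055 and 0.40), while tnpo3 libraries, at 16.4, 7.96 and 11.2%, did not. The 124-bp intron of sf3a1, a U2 snRNP protein, was at 0.80, 0.97 and 1.39% in controls and 7.49, 14.0 and 8.10% in lsm8 mutants. It passed the adjusted p (0.038), but its difference was under 10 points. It was named after its value was seen.

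The intron with the largest difference, 7236 bp long in the gel-forming mucin gene muc5ac, was at 91.5, 86.8 and 90.4% in controls and 46.7, 26.3 and 2.27% in lsm8 mutants. The groups did not overlap, but the mutant libraries were far apart and 1 had 12 reads (adjusted p = 0.075). In trnau1apb the 247-bp intron, which overlaps no other event, was at 56.9, 59.3 and 65.4% in controls and 87.9, 82.9 and 80.4% in lsm8 mutants (adjusted p = 0.075). Its snapc3 libraries, at 71.1, 73.4 and 72.6%, were also above all controls, as were its tnpo3 libraries, at 76.5, 66.3 and 66.2% (adjusted p = 0.59 and 0.69). The splicing factor gene RBM25 had a 281-bp intron at 10.9% ± 10.7 in controls and 42.3% ± 9.7 in lsm8 mutants (adjusted p = 0.096). anapc15, an anaphase-promoting complex subunit, had a 965-bp intron at 57.7% ± 13.9 and 19.9% ± 11.7 (adjusted p = 0.096). Further large differences, in PPP2CA, ccdc103, spty2d1, zgc:110410 and crip1, had adjusted p of 0.16 to 0.75. The zgc:110410 intron overlaps another 117-bp intron of the gene.

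Other large differences came from introns with a mean below 20 reads. The 412-bp intron of cd74b, an MHC class II invariant chain gene, was at 0, 9.68 and 0% in controls and 66.7, 20 and 40% in lsm8 mutants, on 5 to 7 reads per mutant library (adjusted p = 0.075). An intron of si:ch211-199g17.2 was at 41.7, 54.5 and 60% in controls and 86.7, 88.9 and 75.8% in lsm8 mutants (adjusted p = 0.075). In both, all lsm8 libraries lay above the controls. The 133-bp intron of si:dkey-94e7.2 was at 60.8% in controls and 22.2% in lsm8 mutants in the means, on 2 to 8 reads per mutant library (adjusted p = 0.23).

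In snapc3 mutants no intron above 100 bp was called. limma gave 0 of 322 (0.0% of all 675 tested), with 39 (12.1%) at an unadjusted p below 0.05 beside 9.33% of all tested. No intron was called by the quasi-binomial model, where 33 of the 322 fell below 0.05 before adjustment. For that count the share over all tested introns was not computed. The authors' deposited FDR with 10 points gave 3 higher (0.932%) and 8 lower (2.48%), beside 0.889% and 1.63% of all tested. By values the introns leaned lower: 129 of 322 (40.1%) had a higher mean in the mutants, beside 43.0% of all tested introns, and the median difference was -0.22 points. All 3 mutant libraries lay above all controls in 22 introns and below in 37, or 6.83% and 11.5%, where all tested introns gave 7.11% and 8.15%.

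Among introns with at least 20 reads, 4 of the 6 largest higher means in snapc3 mutants came from introns whose mutant libraries were spread. The 111-bp intron of the tyrosine kinase gene fes was at 100, 14.3 and 100% on 14 to 20 reads, and the 3 introns of si:dkey-102m7.3 had SDs of 13.6 to 46.6 points in the mutants. The introns of 280 and 295 bp in si:dkey-102m7.3 overlap each other. The 186-bp intron of the sulfotransferase gene chst10 was at 62.6% ± 8.6 in controls and 83.8% ± 9.3 in snapc3 mutants (adjusted p = 0.49). The largest lower means were in C6H1orf159, crip1, ccni, fga, anapc15 and taz, with differences of -28.4 to -19.3 points and adjusted p of 0.49 to 0.83. The chst10 intron overlaps another of 183 bp, and the 133-bp intron of taz overlaps another of 149 bp. The 220-bp intron of fga, which encodes the liver-made fibrinogen alpha chain, had 1 control library apart, with controls at 35.6, 40.2 and 72.8% and snapc3 mutants at 29.3, 30.6 and 26.7%. All 3 mutant libraries lay below the controls. The 848-bp intron of the RNA helicase gene ddx5 was at 31.4, 27.4 and 24.8% in controls and 32.8, 36.8 and 38.4% in snapc3 mutants, again without overlap.

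In tnpo3 mutants no intron was called either. limma gave 0 of 319 (0.0% of all 675 tested), with 26 (8.15%) at an unadjusted p below 0.05 beside 8.74% of all tested. No intron was called by the quasi-binomial model, where 25 of the 319 fell below 0.05 before adjustment. For that count the share over all tested introns was not computed. The authors' deposited FDR with 10 points gave 3 higher (0.94%) and 14 lower (4.39%), beside 1.04% and 3.56% of all tested. A higher mean was seen in 114 introns (35.7%), beside 37.0% of all tested, and the median difference was -0.43 points. All mutant libraries lay above the controls in 11 introns and below in 48, or 3.45% and 15.0%, where all tested introns gave 4.15% and 12.6%.

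The tnpo3 transcript itself carried a 163-bp intron (chr4:12660448-12660610), which was at 7.13, 7.65 and 9.09% in controls and 18.6, 42.1 and 23.6% in tnpo3 mutants. The mutant libraries all lay above the controls, by 20.1 points in the means, with 67 to 89 reads each against 218 to 252 in controls. The difference did not pass (adjusted p = 0.24). In lsm8 mutants this intron was at 10.1, 14.9 and 16.7% and in snapc3 mutants at 8.02, 14.1 and 12.2%.

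In srsf1b, the 654-bp intron (chr21:38404389-38405042) was at 85.3, 80.5 and 86.3% in controls, 71.4, 70.7 and 78.3% in snapc3 mutants, 87.1, 94.5 and 91.7% in lsm8 mutants and 95.9, 96.8 and 97.1% in tnpo3 mutants. The 3 mutants separated from the controls in different directions, with snapc3 libraries below and lsm8 and tnpo3 libraries above all controls (adjusted p = 0.56, 0.26 and 0.22). In the authors' deposited table srsf1b RNA was higher in tnpo3 mutants (log2 fold change 1.28, SE 0.08). Its 120-bp intron stayed within 93.2 to 99.4% in every library. Other large differences in tnpo3 mutants rested on libraries with few reads or on 1 library: the 174-bp intron of gas5, a noncoding snoRNA host, was at 100, 16.8 and 100% on 22 to 43 reads, and klhl31, a muscle gene, was at 0.64, 79.3 and 83.7%. The remaining introns with the largest differences, in mep1a.1, thumpd3, si:dkey-102m7.3, mpx, crip1, fga, ccdc103 and zc3h11a, had adjusted p of 0.28 to 0.81.

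**Figure D4:**
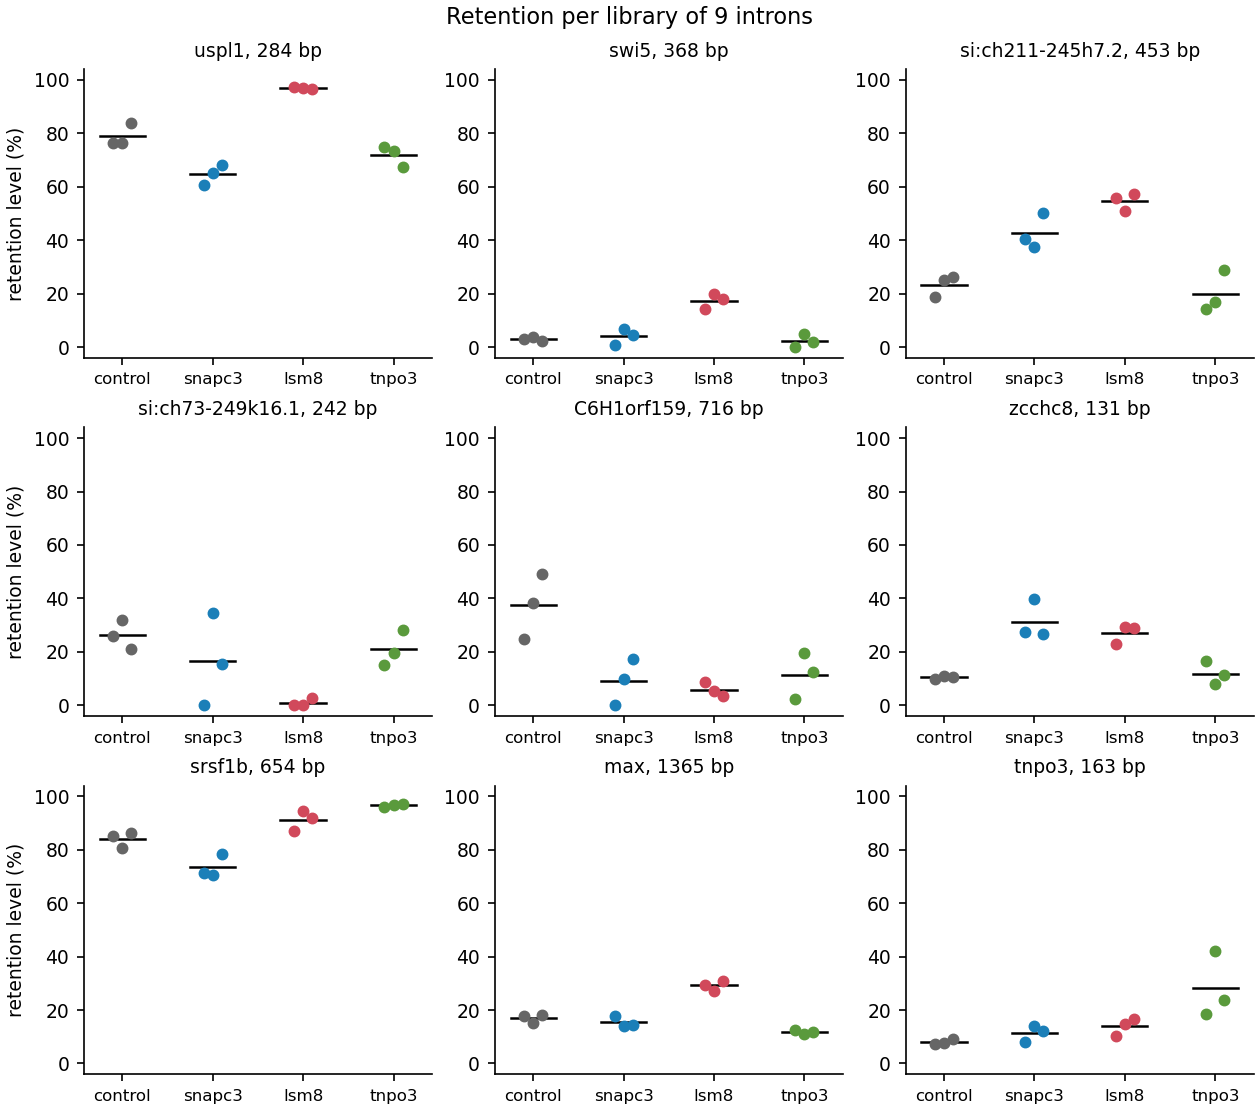
Retention level (%) of 9 introns in each library; points are libraries, coloured by group, and lines are means of 3. uspl1, swi5, max and both si: introns show lsm8 libraries apart from the controls, and zcchc8 shows snapc3 and lsm8 libraries above the controls. C6H1orf159 shows all mutants below the controls, and srsf1b shows snapc3 libraries below and lsm8 and tnpo3 libraries above them.

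The mutants were then compared with each other in 1 limma fit over all 4 groups, on 309 of these introns among 650 tested. The mutants share the controls in the comparisons above, but these contrasts use the mutant libraries themselves. Between lsm8 and snapc3 mutants 7 introns differed, 6 of them higher in lsm8 mutants, which is 2.27% beside 4.62% of all tested (4.15% higher and 0.462% lower). Between lsm8 and tnpo3 mutants 17 differed, 13 higher in lsm8 mutants, which is 5.50% beside 8.77% (7.69% higher and 1.08% lower). Leaving out 1 library moved these 7 to between 1 and 5 and these 17 to between 6 and 12. Between tnpo3 and snapc3 mutants 1 intron differed, beside 0.154% of all tested.

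That 1 intron was the 654-bp intron of srsf1b, 23.2 points higher in tnpo3 than in snapc3 mutants (log2 ratio 3.34, SE 0.43, adjusted p = 0.00537). It was also 17.7 points higher in lsm8 than in snapc3 mutants (adjusted p = 0.0226). The uspl1 intron was 32.3 points higher in lsm8 than in snapc3 mutants (adjusted p = 0.000115) and 24.96 points higher than in tnpo3 mutants (adjusted p = 0.000399). Both introns therefore differed between mutants as well as in their order around the controls.

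The 1365-bp intron of max, the partner of the MYC transcription factors, was at 17.7, 15.2 and 18.0% in controls, 17.9, 14.0 and 14.5% in snapc3 mutants, 29.5, 27.1 and 31.0% in lsm8 mutants and 12.6, 11.1 and 11.9% in tnpo3 mutants. The lsm8 libraries lay above all others and the tnpo3 libraries below all others. It was 17.4 points higher in lsm8 than in tnpo3 mutants (adjusted p = 0.0106) and 13.7 points higher than in snapc3 mutants (adjusted p = 0.0385). An overlapping 1380-bp intron of max, which uses another splice site, was at 23.6% ± 3.1, 22.2% ± 1.7, 27.4% ± 0.9 and 20.5% ± 0.9 in the same order of groups.

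The 107-bp intron of aup1, a lipid droplet protein, was at 9.95, 9.76 and 11.1% in controls, 8.07, 10.8 and 9.94% in snapc3 mutants, 24.8, 20 and 21.6% in lsm8 mutants and 6.64, 5.63 and 8.80% in tnpo3 mutants. Its lsm8 libraries lay above all others, 15.1 points over tnpo3 mutants (adjusted p = 0.00682). si:ch211-245h7.2 was 34.7 points higher in lsm8 than in tnpo3 mutants (adjusted p = 0.00682). The 471-bp intron of rbm39a was at 39.5% ± 4.7 in lsm8 and 22.4% ± 4.1 in tnpo3 mutants (adjusted p = 0.0331), and the 1474-bp intron of the cyclin L gene ccnl1a at 65.5% ± 2.6 and 42.8% ± 3.7 (adjusted p = 0.0273). Further introns with a difference between mutants were in ptp4a2b, hagh, swi5, zcchc8, zdhhc16a, afmid, cd74b, klhl31, ccdc103, mpx, zgc:110410, muc5ac and si:ch73-249k16.1. The ccnl1a, cd74b and mpx introns enclose exons of 126, 116 and 38 bp, so their values are not of the intron alone.

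**Figure D5:**
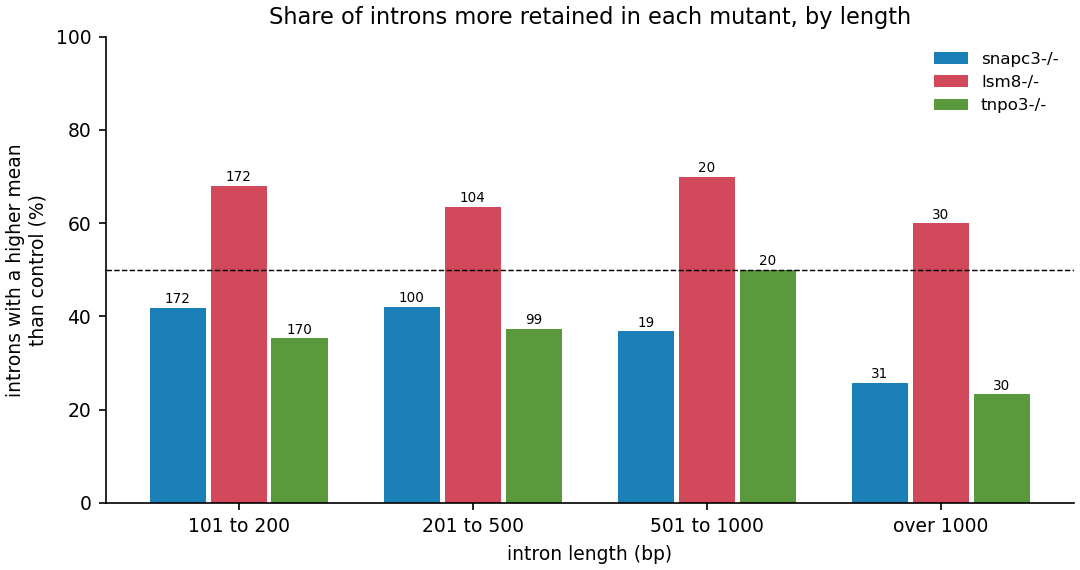
Share (%) of introns whose mean retention was higher in the mutant than in controls, by length bin and mutant; numbers on the bars are introns, and the dashed line is 50%. The lsm8 bars lie above the line in every bin, the snapc3 bars below it, and the tnpo3 bars below it except above 500 and up to 1000 bp, where 10 of 20 introns were higher.

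In lsm8 mutants most introns had a higher mean in each length class. The share was 68.0% of 172 introns up to 200 bp, 63.5% of 104 up to 500 bp, 70.0% of 20 up to 1000 bp and 60% of 30 longer introns. The mean differences were 1.31, 2.63, -0.79 and -2.79 points, so above 500 bp their sign was opposite to the share. The median differences were 0.64, 0.78, 2.33 and 0.90 points. Introns above 500 bp include C6H1orf159, anapc15 and muc5ac, with differences of -31.6, -37.7 and -64.5 points in lsm8 mutants. In snapc3 mutants the share was 41.9, 42.0, 36.8 and 25.8%, and in tnpo3 mutants 35.3, 37.4, 50 and 23.3%. For introns above 1000 bp the mean level in tnpo3 mutants was 55.2, 52.5 and 56.1% per library, against 53.7, 58.2 and 56.8% in controls, so those groups overlapped. In snapc3 mutants it was 54.8, 53.1 and 54.6%, against 55.2, 59.6 and 58.3%, without overlap. Just above the length limit, the introns of cyt1, hbbe1.2, pmpcb, pcyt2 and dnmt5 had control levels of 0.2 to 5.9% and that of si:ch211-199g17.2 had 52.1%. Just at or below it, those of cnn2 and vmhcl were at 2.4 and 0.2% and those of fxyd6l and med10 at 95.1 and 98.5%.

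The gene lists were chosen with earlier results known. Of 91 listed core spliceosome genes, 5 held 8 of the introns, and in lsm8 mutants 7 of the 8 had a higher mean, with a median difference of 6.46 points beside 0.76 over all 326. The 8 include 3 overlapping events of prpf39. None of the 8 was called, 3 were higher without overlap and 1 was lower without overlap, beside 25.7% and 3.84% of all tested introns. In snapc3 and tnpo3 mutants 3 of the 8 had a higher mean, with medians of -1.52 and -1.61 points. The lower one was the 367-bp intron of prpf39, a U1 snRNP-associated factor gene, at 20.8, 24.3 and 22.7% in controls, 13.3, 14.6 and 18.7% in snapc3 mutants, 13.2, 8.26 and 12.5% in lsm8 mutants and 13.1, 17.0 and 14.6% in tnpo3 mutants. Every mutant library lay below every control (adjusted p = 0.61, 0.11 and 0.57). This event encloses a 118-bp exon, whose inclusion was 8.4% ± 0.9 in controls and 5.9% ± 1.4, 2.8% ± 0.7 and 5.5% ± 0.9 in the 3 mutants.

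SR protein, kinase and import genes held 8 introns in 6 of 42 listed genes. In lsm8 mutants 4 of 7 had a higher mean, in snapc3 mutants 3 of 8 and in tnpo3 mutants 3 of 7, and none was called. In tnpo3 mutants 2 of the 7 were higher without overlap and 3 lower, beside 4.15% and 12.6% of all tested introns. The higher ones were the 654-bp intron of srsf1b (12.5 points) and the 163-bp intron of tnpo3 (20.1 points). In tnpo3 mutants the 1102-bp intron of the SR protein gene srsf5a was at 30.5, 28.9 and 37.2%, below controls at 42.5, 45.1 and 39.0% (adjusted p = 0.64). The 1474-bp intron of ccnl1a was at 43.5, 38.8 and 46.0%, below controls at 56.8, 47.7 and 66.0% (adjusted p = 0.57). The srsf5a intron encloses a 450-bp exon, included at 8.8% ± 3.1 in controls and 6.9% ± 0.6 in tnpo3 mutants. The ccnl1a intron encloses a 126-bp exon and overlaps another event, so neither is a simple intron. The hnRNP and tissue regulator list held only rbm5 and the DNA repair and cell cycle list only gadd45ba, neither called, and the list of LSm, U6 and snRNA genes held only uspl1. No listed T lymphocyte or haematopoietic regulator gene held such an intron.

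The authors' deposited tables, which list only genes that passed their own thresholds, held 9 of 296 host genes for snapc3 mutants (3 higher, 6 lower), 15 of 298 for lsm8 mutants (5 higher, 10 lower) and 3 of 292 for tnpo3 mutants (1 higher, 2 lower). These are 3.04, 5.03 and 1.03%, beside 1.80, 3.59 and 0.654% of all genes with a tested intron. Of the 5 introns called in lsm8 mutants, only that of uspl1 was in a gene of the deposited lsm8 table. In all, the deposited tables list 140, 427 and 38 genes as higher in snapc3, lsm8 and tnpo3 mutants, and 324, 424 and 77 as lower. Of the 91 core spliceosome genes, they list 16, 33 and 0 as higher in the same order of mutants, and 0 as lower. No test of these list counts against all genes was run. Of 66 LSm, U6, snRNA transcription and snRNP assembly genes, they list 8, 11 and 0 as higher, and 2 as lower in snapc3 mutants. The deposited tables also list as lower 14, 13 and 10 of 18 exocrine pancreas markers, 3, 5 and 0 of 10 intestine markers and 5, 2 and 1 of 14 photoreceptor markers in snapc3, lsm8 and tnpo3 mutants. In lsm8 mutants 3 of 14 T lymphocyte and 3 of 9 myeloid markers are listed as lower too, among them lcp1, which holds an intron of the set. In RNA of whole embryos, fewer cells of a type and less RNA per cell cannot be told apart. No pancreas, intestine, photoreceptor or T lymphocyte marker held an intron of the set. Muscle markers in the set, ttnb and atp2a1, were at 86.8 to 97.3% in every group mean, and the liver marker fgg was at 1.0% or less. The other liver marker, fga, was at 49.5% in controls, 28.8% in snapc3, 46.4% in lsm8 and 23.9% in tnpo3 mutants in the means. The myeloid markers were low in controls, with lcp1 at 3.3% and mpx at 1.9%, and in lsm8 mutants they were at 5.6 and 0.4%.

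Host genes also held skipped exons that changed. Among host genes with a tested exon, 8 of 191 (4.19%) had at least 1 called exon in snapc3 mutants, 6 of 179 (3.35%) in lsm8 mutants and 12 of 198 (6.06%) in tnpo3 mutants. The same shares over all genes with a tested exon were 1.24, 2.37 and 4.46%. In lsm8 mutants they included ttnb, dnmt5, lztfl1, trnau1apb, zgc:136474 and rap1gap2a. In trnau1apb the called exon went from 45.7% ± 1.6 to 16.6% ± 2.0 in lsm8 mutants (limma adjusted p = 0.0165), while the 247-bp intron of the gene was more retained in value.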

How the data were processed

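The submitters' processing notes name TopHat2 (2.0.13) and Bowtie2 (2.2.3), featureCounts (1.4.5-p1), limma (3.26.3) and build Zv9. No source used here states the splicing tool or its strand setting, so reads of overlapping antisense genes cannot be told apart. The deposited retained-intron tables hold inclusion and skipping read counts per library, form lengths, inclusion fractions, p-values and an FDR. Counts of the first group were identical for every event that the 3 tables share, which fixed it as the control. Positions within a cell carry no replicate number. Libraries of a group differed from each other beyond sampling noise, so each counted as 1 replicate. No column of another series was used. The deposited expression tables hold log2 fold changes, a moderated statistic (a score) and adjusted p-values, with no values per library; SE is the fold change divided by that statistic.

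Retention was recomputed from the counts and differed from the deposited fraction by at most 0.0005. limma 3.58.1 (R 4.3.3; trend and robust) was fitted to log2 length-normalised ratios with a pseudocount of 0.5 reads on whole tables, with Benjamini-Hochberg adjustment over all tested introns. Events needed a mean of at least 10 reads and at least 1 read of each form. A call needed an adjusted p below 0.05 and a difference of at least 10 points. The script was tested on simulated data. Alternatives were a quasi-binomial model, other pseudocounts, minimums and fits, the deposited FDR, and leaving out each library. Intervals from depth were not computed; SD over libraries carries the error. Introns were named by a rule: all called, the 6 largest rises and falls per mutant among introns with a mean of at least 20 reads, up to 4 per gene list, extremes in controls, contrasts between mutants and introns next to the length limit; sf3a1, ddx5, si:dkey-94e7.2, st3gal5, the tnpo3 intron in other mutants, the second introns of named genes and introns with enclosed exons were added after their values were seen. Members, lists and tests were chosen with earlier results of these data known.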

Additional observations from a re-analysis of the deposited data

Results flagged for a closer look

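The test of the difference between mutants passed for 25 comparisons of 20 introns, in percentage points with limma adjusted p-values over 650 introns. In 7 of the 25 the first-named and second-named mutant lay on opposite sides of all control libraries. The 25 were chosen because the mutants differed, which favours opposite sides. The share over all tested introns was not computed, so this count describes only these 25.

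Between lsm8 and snapc3 mutants the intron of uspl1 differed by 32.3 points (0.000115), afmid by 25.5 (0.0223), srsf1b by 17.7 (0.0226), zdhhc16a by 13.9 (0.00359), max by 13.7 (0.0385), aup1 by 12.5 (0.0257) and muc5ac by -60.5 (0.0223). The zdhhc16a value rests on 7 to 11 reads per snapc3 library. Between tnpo3 and snapc3 mutants the srsf1b intron differed by 23.2 points (0.00537).

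Between lsm8 and tnpo3 mutants the differences above 30 points were klhl31 at 44.7 (0.0384), ccdc103 at 44.3 (0.0238), cd74b at 40.4 (0.0248), si:ch211-245h7.2 at 34.7 (0.00682), zgc:110410 at -40.4 (0.0460) and muc5ac at -62.6 (0.0142). The klhl31 value rests on 1 tnpo3 library at 0.64%, and the zgc:110410 intron overlaps another 117-bp intron of the gene. The cd74b intron had 5 to 7 reads per lsm8 library, and it encloses an exon, as do those of ccnl1a and mpx. The other higher values in lsm8 mutants were hagh at 28.0 (0.0337), ptp4a2b at 25.3 (0.0248), uspl1 at 24.96 (0.000399), ccnl1a at 22.8 (0.0273), max at 17.4 (0.0106), rbm39a at 17.1 (0.0331), zcchc8 at 15.2 (0.0287), aup1 at 15.1 (0.00682) and swi5 at 15.1 (0.0248). The other lower values were si:ch73-249k16.1 at -20.02 (0.0287) and mpx at -17.8 (0.0270), where 1 tnpo3 library had 3 reads.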

How the results depend on the processing

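No paired analysis was possible because the columns carry no replicate numbers, so the planned replicate block was not run. Members called in snapc3, lsm8 and tnpo3 mutants were 11, 27 and 17 with the deposited FDR. In lsm8 mutants they were 8 with a fit over all 4 groups (3 of the 5 kept), 9 with a pseudocount of 2, 3 at 20 points, and 0 without a read minimum or with the quasi-binomial model. Leaving out 1 library gave 0 to 1 in each mutant. For lsm8 minus snapc3 the calls were 12 with a pseudocount of 2, 16 with no minimum difference, 3 at 20 points and 1 to 5 leaving out 1 library. For tnpo3 minus snapc3 they were 2, 5, 3 and 2 with a pseudocount of 2, the quasi-binomial model, a minimum of 20 reads and no minimum difference, and 1 to 3 leaving out 1 library. For lsm8 minus tnpo3 they were 36 with no minimum difference, 11 at 20 points and 6 to 12 leaving out 1 library. Shares over all tested introns are given above for the deposited FDR. For the other settings they were not computed, so those counts describe only the introns above 100 bp.

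The mean difference became -1.87, 2.19 and -2.06 points as a difference of medians over introns (snapc3, lsm8, tnpo3), and 2.71 in lsm8 mutants on summed reads, beside -0.558, 1.22 and -1.24 in each mutant's own table. Without 1 library it was -0.935 to -0.176, 0.894 to 1.60 and -1.58 to -0.899. Introns with a higher mean were 114 to 143, 197 to 230 and (tnpo3) 102 to 127. Non-overlapping introns, which fewer libraries make more frequent by construction, were 29 to 36 higher and 47 to 60 lower, 72 to 103 and 24 to 33, and 14 to 24 and 53 to 91. Above 150 bp, where fewer introns remain, 78, 129 and 69 had a higher mean, and 14 and 41 did not overlap and were higher in snapc3 and lsm8 mutants. Shares over all tested introns were not computed without 1 library or above 150 bp, so these counts describe only the long introns. Among the 295 introns with no enclosed exon or overlapping event, chosen after seeing the data, 40.0, 67.5 and 35.0% had a higher mean, and 0, 4 and 0 were called. The named introns with a call had 30 calls in all, and of their 304 values under alternatives 174 kept the call and 130 lost it. Of 1429 values of named introns without a call, 11 gained one. No called value changed direction. The cause of these changes was not tested. Levels from few reads per library move in coarse steps, and the part of depth was not tested.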

Other observations

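Some introns were split within a group. The 107-bp intron of crip1, which encodes a small LIM-domain protein, was at 100, 77.6 and 4.31% in controls, 0.88, 100 and 2.22% in snapc3 mutants, 5.03, 3.39 and 100% in lsm8 mutants and 3.81, 1.86 and 3.71% in tnpo3 mutants. The libraries at 77.6% or above had 9 to 17 reads over it and the others 334 to 945, so depth moved with the level. The 174-bp intron of gas5 was at 100% in 2 tnpo3 libraries with 22 and 26 reads, and at 8.73 to 24.2% in the 10 other libraries. In the fes intron of 111 bp, 2 snapc3 libraries with 14 reads each were at 100% and the 10 others at 11.1 to 44.7%. Per the labels, the libraries of each mutant group share a background. Which background each control library carries is not known from the files, and its part in the split of the crip1 controls was not tested. The median SD within a group was small, at 1.72 to 2.14 points.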
